A study of Mus musculus with 7 samples.

Results

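Expression of 10 genes of the Notch pathway was followed in Paneth cells sorted from mice on a calorie-restricted diet (4 arrays) and on an ad libitum diet (3 arrays). The genes were the ligands Dll1, Dll4, Jag1 and Jag2, the receptors Notch1, Notch2 and Notch3, the glycosyltransferase Lfng, and the transcription factors Hes1 and Hes6. They were chosen by name, 10 of the 19938 genes that the platform annotation named from transcript clusters (the array's gene-level probe sets) with 1 symbol. Each of the 10 had 1 such cluster, and all 10 were among the 13409 genes whose mean was at or above the 40th percentile of all clusters (6.79 on the log2 scale) and which were tested.

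The calorie-restricted mice received 60% of the ad libitum calories for 4 to 7 weeks, and mice of both diets were 4 months old. Flow cytometry was used to collect the Paneth cells, the granule-bearing cells of the crypt base that secrete antimicrobial proteins, and each sample (10 ug of RNA) was put on 1 Affymetrix array. The samples are titled biological replicates, and the sources used here do not give strain, sex or the number of animals behind a sample, so p-values measure only the spread between these samples.

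In Notch signalling, a ligand on the surface of one cell binds a receptor on its neighbour, the receptor is cut by membrane proteases, and its intracellular part enters the nucleus and joins the DNA-binding protein RBPJ to turn on target genes such as Hes1. In the crypt, Paneth cells present Dll1 and Dll4 to adjoining stem cells, which carry Notch1 and Notch2. Active Notch keeps a cell out of the secretory lineages, because Hes1 represses Atoh1, the factor that starts secretory differentiation.

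The start regions of 4 genes are shown because their levels moved together or oppositely over the arrays, or because the region held the RBPJ motif. They are RefSeq sequences of build GRCm38.p6, written 5′ to 3′ on the gene's strand and spanning 250 bases before the start site and 50 after it. The table held 11 such windows for 9 of the 10 genes (all but Hes1). The motif TGGGAA, the RBPJ core, was searched on both strands. It was found in 1 of the 11 windows, that of Lfng, and in 25.6% of all 32851 windows. Capitals mark it in the Lfng sequence.
Lfng, chr5:140607091-140607390, plus strand: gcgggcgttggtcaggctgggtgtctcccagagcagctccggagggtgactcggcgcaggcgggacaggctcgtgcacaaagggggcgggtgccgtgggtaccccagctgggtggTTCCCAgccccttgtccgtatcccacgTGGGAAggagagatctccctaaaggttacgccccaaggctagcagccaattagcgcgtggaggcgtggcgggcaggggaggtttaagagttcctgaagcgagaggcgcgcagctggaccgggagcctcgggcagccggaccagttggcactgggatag

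The Lfng window held 2 matches, beginning at -135 on the opposite strand and at -108 on the gene's strand, with the first base after the 250 upstream bases counted as 0. The match at -108 overlapped an E-box (CANNTG, bound by basic helix-loop-helix factors) at -112. For Notch1, Notch2 and Hes6 capitals mark CACNAG, the N-box bound by Hes proteins, on either strand. It was found in 7 of the 11 windows, 1 each of Dll1, Dll4, Hes6, Lfng, Notch1, Notch2 and Notch3, and in 42.5% of all windows. The N-box of Lfng, at -181, is left in lower case in the sequence above. In Notch1 the matches at -3 and -1 overlap and are printed as 1 run of capitals. Of the 2 Hes6 windows the one with an N-box is shown.
Notch1, chr2:26503773-26504072, minus strand: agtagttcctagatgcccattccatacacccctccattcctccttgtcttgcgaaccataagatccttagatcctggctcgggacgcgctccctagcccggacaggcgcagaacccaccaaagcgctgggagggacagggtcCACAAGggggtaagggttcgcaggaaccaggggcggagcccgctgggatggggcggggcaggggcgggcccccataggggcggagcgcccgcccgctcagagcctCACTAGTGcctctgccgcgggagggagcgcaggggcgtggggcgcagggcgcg
Notch2, chr3:98013288-98013587, plus strand: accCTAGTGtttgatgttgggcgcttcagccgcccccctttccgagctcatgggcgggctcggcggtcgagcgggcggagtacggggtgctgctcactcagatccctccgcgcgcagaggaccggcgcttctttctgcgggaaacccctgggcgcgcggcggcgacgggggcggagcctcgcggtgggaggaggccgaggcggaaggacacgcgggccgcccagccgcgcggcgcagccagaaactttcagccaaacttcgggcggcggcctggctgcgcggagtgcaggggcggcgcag
Hes6, chr1:91413173-91413472, minus strand: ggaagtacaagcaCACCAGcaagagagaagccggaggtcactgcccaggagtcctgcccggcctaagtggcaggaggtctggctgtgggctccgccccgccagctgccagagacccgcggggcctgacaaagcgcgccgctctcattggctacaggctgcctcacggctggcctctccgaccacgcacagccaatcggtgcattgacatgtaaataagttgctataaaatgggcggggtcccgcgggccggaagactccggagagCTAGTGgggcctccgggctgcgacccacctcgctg

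The E-box CANNTG was found in 6 of the 11 windows, those of Dll1, Hes6, Jag1 and Lfng, and in 72.3% of all windows. These matches describe letters in a window, and binding was not measured.

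Between the diets, no difference was detectable in any of the 10 genes. With limma, 0 of 10 passed an adjusted p of 0.05, where 0.664% of all genes tested did (0.656% higher and 0.00746% lower under calorie restriction). An unadjusted p below 0.05 was reached by 0 of 10, against 9.3% of all genes tested. An ordinary linear model called 0 of the 10 and 0 of all genes tested. The groups overlapped for all 10 genes, while they were fully apart for 10.2% of all genes tested. Each difference below is the level under calorie restriction less that under ad libitum feeding (log2), fitted ± SE (standard error of the moderated fit), and levels are log2 expression values with mean ± SD (n = 4 for calorie restriction, n = 3 for ad libitum feeding). The 10 differences lay between -0.20 and 0.21 with a median of -0.026, beside a median of 0.015 over all genes tested. Of the 10, 4 were positive and 6 negative as deposited (54.2% of all genes tested were positive), and 6 were positive and 4 negative after median centring of the arrays or after quantile normalization. Median centring shifts all genes of an array alike, and the median difference over all genes tested was then 0.10. After quantile normalization that median was 0.031.

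**Figure D1:**
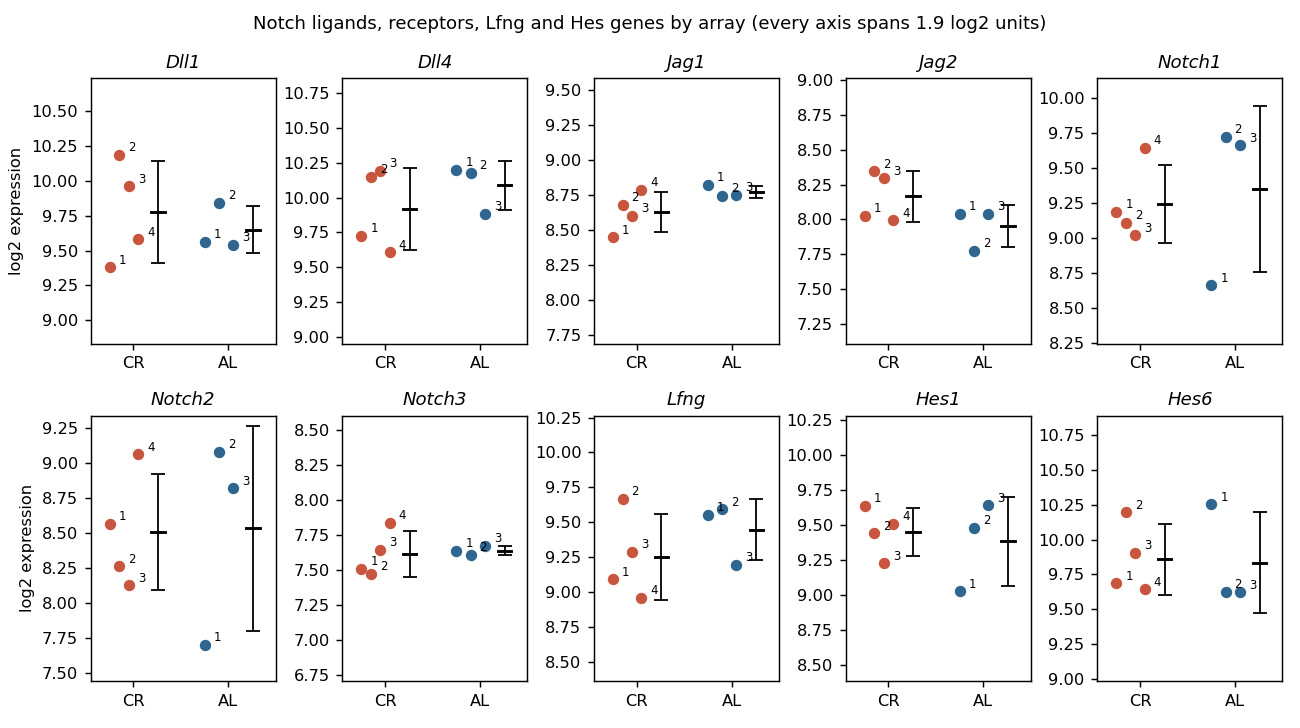
Log2 expression of the 10 genes in each array, with calorie-restricted (CR) arrays left of ad libitum (AL) arrays, small digits giving the replicate number and black bars the mean ± SD. The groups overlap in every panel, and in Notch1 and Notch2 ad libitum replicate 1 lies below the other 6 arrays.

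Dll1, a Delta ligand, had log2 levels of 9.38, 10.19, 9.96 and 9.58 in calorie-restricted replicates 1 to 4, against 9.56, 9.84 and 9.54 in ad libitum replicates 1 to 3. Both the lowest and the highest level were in calorie-restricted arrays, so the ad libitum levels lay inside their range. The difference was 0.13 ± 0.19 (limma, adjusted p = 0.896). Without calorie-restricted replicate 2, the highest array, it was -0.0076.

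Dll4, the other Delta ligand of the Paneth cell, stood at 9.73, 10.15, 10.19 and 9.61 in calorie-restricted replicates 1 to 4, against 10.20, 10.18 and 9.88 in ad libitum replicates 1 to 3. Calorie-restricted replicates 2 and 3 were level with the 2 highest ad libitum arrays, and replicates 1 and 4 lay below every ad libitum array. Its mean was 9.92 ± 0.30 under calorie restriction and 10.09 ± 0.18 under ad libitum feeding, with a difference of -0.17 ± 0.17 (95% interval -0.55 to 0.22).

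Jag1 and Jag2, the Jagged ligands, had smaller spreads. Levels of Jag1 were 8.45, 8.68, 8.60 and 8.79 in calorie-restricted replicates 1 to 4, against 8.82, 8.74 and 8.75 in ad libitum replicates 1 to 3. Calorie-restricted replicate 4 lay among the ad libitum arrays and the other 3 below them. The difference was -0.14 ± 0.10, with a 95% interval of -0.38 to 0.09. Jag2 read 8.03, 8.34, 8.29 and 7.99 in calorie-restricted replicates 1 to 4, against 8.04, 7.78 and 8.04 in ad libitum replicates 1 to 3. Calorie-restricted replicates 2 and 3 lay above every ad libitum array, and replicates 1 and 4 just below 2 of them. Its difference of 0.21 ± 0.13 was the most positive of the 10 and had the lowest p (limma, adjusted p = 0.695; 95% interval -0.08 to 0.50).

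Among the receptors, Notch1 and Notch2 varied more between arrays than most genes. The Notch1 log2 level was 9.19, 9.11, 9.02 and 9.64 in calorie-restricted replicates 1 to 4, against 8.66, 9.72 and 9.66 in ad libitum replicates 1 to 3. For Notch2 the levels were 8.57, 8.26, 8.13 and 9.06 under calorie restriction and 7.70, 9.08 and 8.82 under ad libitum feeding. Both receptors were lowest in ad libitum replicate 1, and both were high in calorie-restricted replicate 4 and ad libitum replicates 2 and 3. Over the 7 arrays the level spanned 1.06 log2 units for Notch1 and 1.39 for Notch2. Their residual SD within the diets, 0.435 and 0.566, ranked at the 95.4th and 98.1st percentile of all genes tested.

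The diet intervals of these receptors were correspondingly wide. The difference was -0.11 ± 0.27 for Notch1 (95% interval -0.73 to 0.51) and -0.03 ± 0.35 for Notch2 (-0.82 to 0.77). That of Notch2 was positive after quantile normalization (0.0020) or median centring (0.058). Single arrays moved both differences. Without ad libitum replicate 1 the Notch1 difference was -0.45 ± 0.17 (limma, unadjusted p = 0.0321, adjusted p = 0.318) and the Notch2 difference -0.45 ± 0.25 (adjusted p = 0.500). The Notch1 difference was positive without ad libitum replicate 2 (0.077) or 3 (0.047). The Notch2 difference was positive without ad libitum replicate 2 (0.25) or 3 (0.11) or calorie-restricted replicate 2 (0.052) or 3 (0.097).

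Notch3 held a narrow range. It stood at 7.51, 7.47, 7.64 and 7.84 in calorie-restricted replicates 1 to 4, against 7.64, 7.61 and 7.67 in ad libitum replicates 1 to 3. The ad libitum levels lay within the calorie-restricted range, and the difference was -0.02 ± 0.10 (95% interval -0.26 to 0.22), with a positive sign after quantile normalization (0.052) or median centring (0.063). Notch3 is best known from the muscle cells of vessel walls. Of 8 markers of smooth muscle and pericytes, 3 had means below the filter level of 6.79, and the mean of the list was 6.67 to 6.83 in calorie-restricted arrays and 6.73 to 6.83 in ad libitum arrays. Dll4 and Notch1 are also made by blood vessels. Of 10 endothelial markers 5 were below the filter level, among them Cdh5 and Kdr, and 5 at or above it, Esam highest with a mean of 8.44. In the whole series 13409 of 19938 named genes were at or above that level. The endothelial list means were 6.60 to 6.78 in calorie-restricted arrays and 6.72 to 6.84 in ad libitum arrays. What these cells contribute to the levels was not tested.

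Lfng adds a sugar to Notch receptors and changes which ligands they answer to. Its levels were 9.09, 9.67, 9.29 and 8.96 in calorie-restricted replicates 1 to 4, against 9.55, 9.59 and 9.19 in ad libitum replicates 1 to 3. Calorie-restricted replicate 2 was the highest array and replicates 1 and 4 the lowest. From the low end, Lfng and Dll4 both began with calorie-restricted replicates 4 and 1 and ad libitum replicate 3. Their order differed from there, with ad libitum replicate 1 highest for Dll4. The difference was -0.20 ± 0.18 (95% interval -0.61 to 0.22), and it was negative in all 11 alternative settings that move the fitted difference, as were those of Dll4 and Jag1.

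Hes1, the repressor that Notch turns on, read 9.64, 9.44, 9.23 and 9.51 in calorie-restricted replicates 1 to 4, against 9.02, 9.48 and 9.64 in ad libitum replicates 1 to 3. It was lowest in ad libitum replicate 1, as Notch1 and Notch2 were, and next lowest in calorie-restricted replicate 3. The mean was 9.45 ± 0.17 under calorie restriction and 9.38 ± 0.32 under ad libitum feeding, with a difference of 0.07 ± 0.16 that was -0.11 without ad libitum replicate 1. Hes6 belongs to the same family but is known to oppose Hes1. It was at 9.69, 10.20, 9.90 and 9.64 in calorie-restricted replicates 1 to 4, against 10.25, 9.62 and 9.62 in ad libitum replicates 1 to 3. Here ad libitum replicate 1 was the highest array, and the 2 other ad libitum arrays were the lowest. The difference was 0.02 ± 0.19 (95% interval -0.42 to 0.47).

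**Figure D2:**
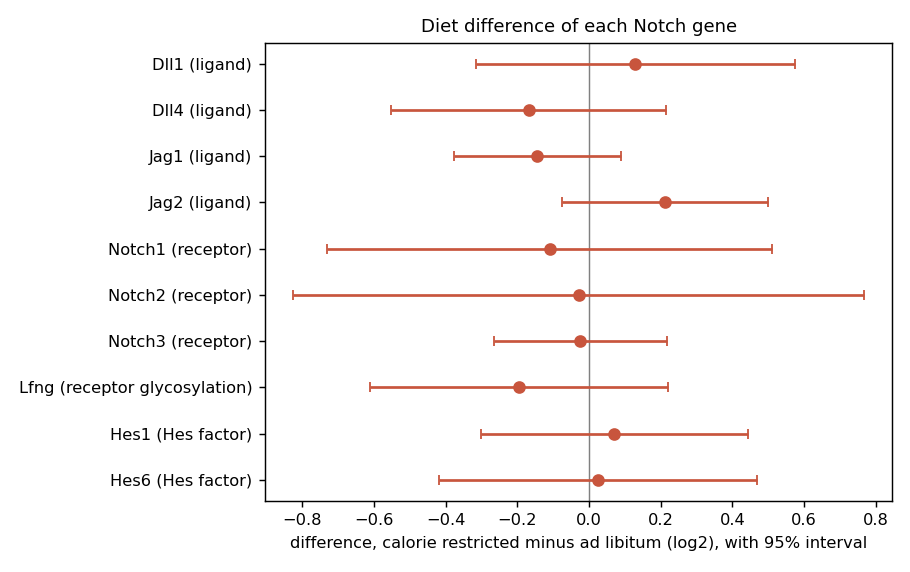
Difference between the diets for each gene on the log2 scale, calorie restricted minus ad libitum, as the fitted value (point) with its 95% interval (bar). Every interval includes 0, from the narrowest, Jag1 (-0.38 to 0.09), to the widest, Notch2 (-0.82 to 0.77).

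For 8 of the 10 genes (all but Jag1 and Jag2) the residual SD within the diets was larger than the difference between them, and some genes shared an order of arrays. From low to high, Notch1 ran through ad libitum replicate 1, calorie-restricted replicates 3, 2, 1 and 4, and ad libitum replicates 3 and 2. Notch2 had the same order but for an exchange of calorie-restricted replicate 4 and ad libitum replicate 3. Hes6 ran the other way: its 3 highest arrays, ad libitum replicate 1 and calorie-restricted replicates 2 and 3, were the 3 lowest for Notch1, Notch2 and Hes1 as deposited. Dll4 shared 2 of those 3 highest arrays, with ad libitum replicate 1 and calorie-restricted replicate 3 on top and calorie-restricted replicate 4 lowest. The arrays fall into separate sets for Notch1 (9.19 or less in 4 arrays, 9.64 or more in 3), so no correlation is given.

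Among 7 tested Hes-family genes and Notch targets outside the 10 genes, the array patterns were mixed: 2 were lowest in ad libitum replicate 1, as Notch1 and Notch2 were, and 4 were highest there. Nrarp, a Notch target that limits the signal, was at 8.53, 8.59, 8.37 and 9.07 in calorie-restricted replicates 1 to 4, against 7.76, 8.51 and 8.48 in ad libitum replicates 1 to 3. Olfm4, a stem cell gene that depends on Notch, was at 13.54, 13.46, 13.36 and 13.58 under calorie restriction and at 13.26, 13.65 and 13.66 under ad libitum feeding. Both were lowest in ad libitum replicate 1. The 4 highest there were Hes3 (7.20), Hes5 (8.44), Hes7 (8.28) and Heyl (8.39). Over the 7 arrays Hes3 spanned only 0.18 log2 units, Hes5 0.28, Hes7 0.61 and Heyl 0.45, beside 1.30 for Nrarp and 0.40 for Olfm4. The tested secretory fate genes that Hes1 represses went opposite ways. Atoh1 stood at 12.43, 12.77, 12.65 and 12.06 under calorie restriction and at 13.00, 12.72 and 12.41 under ad libitum feeding, highest in ad libitum replicate 1 and lowest in calorie-restricted replicate 4. Neurog3, which starts the hormone cell lineage, was at 8.11, 8.06, 7.97 and 8.66 under calorie restriction and at 7.70, 8.37 and 8.46 under ad libitum feeding, lowest in ad libitum replicate 1 and highest in calorie-restricted replicate 4. Rbpj itself was flat, between 9.30 and 9.40 over all 7 arrays.

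Of the marker lists of other crypt cells, some followed the same arrays and others did not. The mean of 9 crypt stem cell markers was 10.95, 10.91, 10.85 and 10.93 in calorie-restricted replicates 1 to 4, against 10.66, 11.21 and 11.01 in ad libitum replicates 1 to 3, lowest in the same 3 arrays as Notch1. The single stem markers did not all share this order. In calorie-restricted replicates 1 to 4 Lgr5 was at 11.01, 11.08, 11.23 and 10.88, higher in replicates 2 and 3. Ascl2, at 9.20, 8.90, 8.56 and 9.19, was lower in them. The mean of 15 enteroendocrine (hormone cell) markers was 9.67, 10.34, 10.29 and 9.46 in calorie-restricted arrays, against 10.10, 9.47 and 9.45 in ad libitum arrays, highest in the 3 arrays where Hes6 was highest, although its member Neurog3 was lowest in them. The mean of 8 tuft cell markers was lowest in calorie-restricted replicate 1 (8.32) and highest in calorie-restricted replicate 2 (9.45). The mean of 6 goblet cell markers was lowest in ad libitum replicate 1 (13.39) and highest in ad libitum replicate 3 (13.63). Among the goblet markers only Zg16 was lowest in ad libitum replicate 1 (10.99), while Muc2 (14.12), Clca1 (13.88) and Agr2 (13.64) were highest there. In these 4 lists 0 markers passed between the diets, and Olfm4 and the enteroendocrine gene Neurog3 are counted among the pathway genes as well. The mean of 10 Paneth markers ran from 13.08 to 13.45 in calorie-restricted arrays and from 13.27 to 13.49 in ad libitum arrays, lowest in calorie-restricted replicate 4 and highest in ad libitum replicate 1, as for Dll4 among all 7 arrays. The mean of 7 immune markers was 7.55, 7.54, 7.51 and 7.65 in calorie-restricted arrays, against 7.61, 7.65 and 7.71 in ad libitum arrays. It was highest in the 3 arrays where Notch1 was highest, though its single markers did not all share this order. A list of 6 fibroblast markers was highest in ad libitum replicate 1 (6.88). In sorted bulk RNA, fewer cells of a type and less RNA per cell cannot be told apart, and the part of these cells in the levels was not tested.

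Array medians also differed along these sets. They were 7.26, 7.24, 7.27 and 7.42 in calorie-restricted replicates 1 to 4, against 7.29, 7.44 and 7.42 in ad libitum replicates 1 to 3, highest in the 3 arrays with high Notch1. After each array was centred on its median, Notch1 spanned 0.909 log2 units, Notch2 1.24 and Hes6 0.782, beside 1.06, 1.39 and 0.629 as deposited. The order of arrays stayed as it was for Notch1, and the 3 highest arrays stayed so for Hes6. For Hes1 the 3 lowest arrays after centring were ad libitum replicate 1, calorie-restricted replicate 3 and ad libitum replicate 2, and for Dll4 the highest was calorie-restricted replicate 3 in place of ad libitum replicate 1. The enterocyte list mean separated the diets instead, at 11.9 to 12.1 in calorie-restricted arrays and 10.4 to 11.1 in ad libitum arrays. Of its 16 markers 7 were higher under calorie restriction (limma, adjusted p below 0.05), beside 0.656% of all genes tested. The other markers did not pass, with the smallest difference in Vil1 (0.10 ± 0.07). The list was chosen with earlier results of these data known, so its share beside that of all genes is a description and no test. It holds Cyp3a11, whose difference of 2.73 was the largest positive one of all genes tested. The role of these markers in the diet differences of the 10 genes was not tested.

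**Figure D3:**
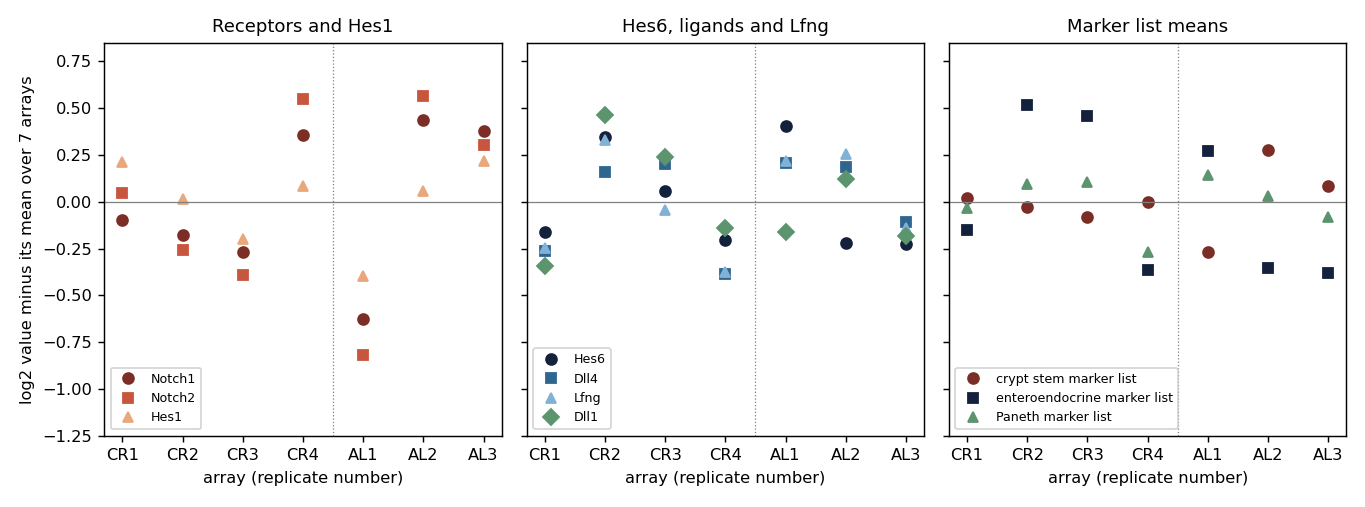
Log2 level minus its own mean over the 7 arrays, for Notch1, Notch2 and Hes1 (left), for Hes6, Dll4, Lfng and Dll1 (middle) and for the means of 3 marker lists (right), with calorie-restricted (CR) arrays left of ad libitum (AL) arrays and numbers giving the replicate. Notch1, Notch2 and Hes1 are lowest in ad libitum replicate 1, where Hes6 is highest, and the crypt stem marker list is lowest there too.

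Genes with the nearest pattern were found by the root mean square (RMS) difference between log2 levels centred over the 7 arrays, among 13408 other genes tested. Nearest to Notch1 were Myc (0.0401), Paxbp1 (0.0436) and Tnfrsf14 (0.0525), where Notch1 itself deviated from its mean by an RMS of 0.372. For Dll4, with an RMS deviation of 0.231, they were Map3k13 (0.0456), Dmxl2 (0.0509) and Arhgap21 (0.0528). The nearest genes to Hes1 (0.208) were Bcl2l11 (0.0457), Psmb1 (0.0462) and Rangrf (0.0494). Dll1 (0.263) had less close neighbours in Gprc5c (0.0722), Pappa2 (0.0750) and Cryba2 (0.0966). With 7 arrays and this many genes, near patterns are common, and these names are a description.

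The rest of the pathway was read from 65 further genes, of which 62 had a cluster with 1 symbol and 60 were tested. Of the 60, 0 passed (limma, lowest adjusted p = 0.205), 31 had a positive and 29 a negative difference, and the median was 0.0090. An unadjusted p below 0.05 was found for 8, beside 9.3% of all genes tested, and 9 had groups that did not overlap, beside 10.2% of all genes tested. The nuclear complex list had 1 of 9 at an unadjusted p below 0.05, with the lowest p of the 60. Kat2a, an acetyltransferase that works with the Notch complex, was at 10.63, 10.69, 10.60 and 10.67 in calorie-restricted replicates 1 to 4, against 10.45, 10.29 and 10.33 in ad libitum replicates 1 to 3. Every calorie-restricted level lay above every ad libitum one, with a difference of 0.29 ± 0.08 that did not pass. Snw1 (0.14 ± 0.08) and the coactivator Maml2 (-0.11 ± 0.09) came next among the 9 tested.

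Genes that move or tag ligands and receptors included 3 of 14 with an unadjusted p below 0.05 (9.3% of all genes tested), a small count in which 0 passed. Numb, which carries Notch receptors away from the surface, was at 10.39, 10.38, 10.38 and 10.43 in calorie-restricted replicates 1 to 4, against 10.06, 10.09 and 10.23 in ad libitum replicates 1 to 3. These groups did not overlap either, with a difference of 0.27 ± 0.08 (limma, adjusted p = 0.252). The ubiquitin ligase gene Neurl3 had a difference of 0.35 ± 0.11 and the Deltex gene Dtx3 of -0.21 ± 0.08. In the receptor cleavage list, Aph1a, a subunit of gamma-secretase, had a difference of 0.21 ± 0.08, its partner subunit Psenen 0.17 ± 0.10 and Aph1b -0.32 ± 0.21, with 1 of 9 at an unadjusted p below 0.05.

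Corepressors had 3 of 10 at an unadjusted p below 0.05 (9.3% of all genes tested), again with 0 that passed, and differences of 0.22 ± 0.07 for the histone deacetylase gene Hdac1, 0.23 ± 0.09 for Tle3 and -0.32 ± 0.13 for Tle2, both Groucho-type partners of Hes proteins. The lists of Hes-family genes and targets, secretory fate genes, ligands, glycosylation genes and the fourth receptor had 0 at an unadjusted p below 0.05. Of the Hes-family genes and targets, Nrarp (0.39 ± 0.22), Heyl (-0.18 ± 0.11) and Hes5 (-0.06 ± 0.09) had the lowest p, and Hey1 and Hey2 lay below the filter level. Of the secretory fate genes that Hes1 represses, Atoh1 had a difference of -0.23 ± 0.19 and Neurog3 of 0.03 ± 0.23. Notch4, the fourth receptor, was at -0.17 ± 0.13. Ligands and ligand-like proteins gave -0.22 ± 0.12 for Dlk2, -0.17 ± 0.13 for Dlk1 and 0.20 ± 0.22 for Dner. The fringe genes Mfng (0.12 ± 0.14) and Rfng (-0.02 ± 0.08) and the fucosyltransferase Pofut1 (0.03 ± 0.14) had the lowest p among the glycosylation genes beside Lfng.

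**Figure D4:**
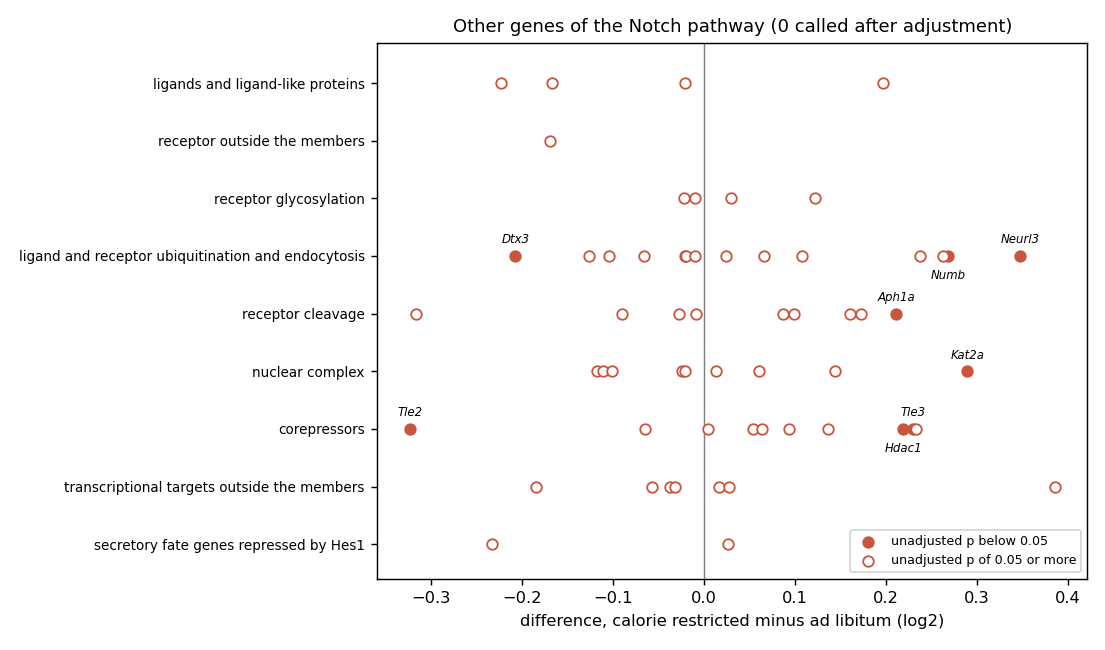
Difference between the diets on the log2 scale, calorie restricted minus ad libitum, for 60 other genes of the Notch pathway grouped by role, with filled points for an unadjusted p below 0.05. The 8 filled points are named, and 0 of the 60 passed after adjustment over all genes tested.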

How the data were processed

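Expression was measured on 7 Affymetrix arrays, 4 from calorie-restricted mice and 3 from mice fed ad libitum, grouped by their titles. The deposited values are log2 expression per transcript cluster, which, per the submitters' processing notes, the authors produced in Affymetrix Expression Console. The sources used here do not give the algorithm or normalization. The log2 scale was inferred from values between 2.97 and 14.7. Of 35556 clusters, 21789 had 1 gene symbol, 1621 several and 12146 none, and the brightest cluster per symbol was kept. No detection call was used, and precision is limited by the number of arrays.

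The diets were compared with limma 3.58.1 in R 4.3.3 (lmFit, eBayes with trend, Benjamini-Hochberg over 13409 genes, call at 0.05), checked on simulated arrays. Those arrays held planted differences larger than any of the 10 members showed, with noise independent between genes. They cannot show how differences of the reported size would be called. The members, lists and tests were chosen with earlier results of these data known. Named genes were the 10 members, up to 3 genes of lowest p per pathway list and the 3 genes nearest in pattern to Dll1, Dll4, Notch1 and Hes1. Olfm4, Hes3, Hes7, Rbpj, Cdh5, Kdr, Esam, Lgr5, Ascl2, Zg16, Muc2, Clca1, Agr2, Vil1, Cyp3a11, Hey1 and Hey2 were named after their values were seen. Alternatives were quantile normalization, median centring, other filters, the mean of clusters, other variance estimates, array weights, a replicate block and leaving out each array. Replicate numbers 1 to 3 occur in both diets, with no stated pairing. Figures were drawn with matplotlib 3.10.9.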

Additional observations from a re-analysis of the deposited data

How the results depend on the processing

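Over 17 alternative settings the 10 genes gave 169 differences, of which 0 were called (lowest adjusted p = 0.0586, for Jag2 with array weights). Notch3 was not tested with the 60th percentile filter. In 6 of the settings (filters, mean of clusters, variance estimates) the fitted difference could not move. Under the other 11, signs turned in 18 of 110 differences, none of them called. Of the 11, the replicate block repeated the differences found without calorie-restricted replicate 4. That array is alone in its number, so the block leaves it no part in the difference. After quantile normalization Notch2 was at 0.0020 and Notch3 at 0.052, after median centring 0.058 and 0.063, and with array weights Hes1 was at -0.052. The median difference over all genes tested was 0.031 after quantile normalization and 0.10 after median centring. Leaving out 1 array at a time gave ranges of -0.0076 to 0.26 for Dll1, -0.45 to 0.077 for Notch1, -0.45 to 0.25 for Notch2, -0.099 to 0.024 for Notch3, -0.11 to 0.20 for Hes1 and -0.088 to 0.23 for Hes6. Array weights lay between 0.292 (ad libitum replicate 1) and 2.93 (ad libitum replicate 2). These weights gave 8 calls among the 60 other pathway genes against 0, beside 1355 calls among all 13409 genes tested. They gave differences of 0.38 for Jag2, -0.49 for Notch1 and -0.57 for Notch2 (unadjusted p below 0.05 for these 3) and 0.31 for Hes6. With these weights, 4052 of the 13409 genes tested had an unadjusted p below 0.05 (limma), so the 3 of 10 do not stand out. Over all genes tested, 89 calls became 53 after quantile normalization, 1355 with array weights and 0 with the ordinary linear model (1318 at an unadjusted p below 0.05), and lay between 12 and 105 without 1 array. With the replicate number as a block, 0 of all genes, 0 of the 10 and 0 of the other pathway genes were called (988 of all genes and 0 of the 10 at an unadjusted p below 0.05). Same-numbered arrays did not deviate together from their diet means, with correlations across genes of -0.126, -0.265 and -0.550. Differently numbered pairs ran from -0.731 to 0.641, so these values cannot settle whether the numbers mark a shared origin. The cause of these changes was not tested. Signal over background is not given, so low levels have no stated floor.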
